A study of Mus musculus with 12 samples.

Results

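The CXCR3 chemokine axis was followed in CT-26 tumors through the 4 genes Cxcl9, Cxcl10, Cxcl11 and Cxcr3, out of 30630 genes with a value in every tumor. CT-26 is a murine colon carcinoma cell line, and its cells were injected under the skin of the right flank of male BALB/c mice that were 4 to 6 weeks old when purchased. Mice of the control group carried tumors and did not swim, while mice of the swimming group were trained in water 2 times a day on 6 days of the week for 3 weeks. Whether control mice were placed in water is not given in the sources used here. RNA-Seq values of 6 control and 6 swimming tumors were available, each tumor being from a different mouse. The labels name no altered gene and no drug in either group, and all the tumors came from 1 cell line. The 4 genes were selected on their function and on earlier results of their FPKM in swimming against control tumors, so their difference between the groups is described here and not tested.

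CXCL9, CXCL10 and CXCL11 are small secreted proteins that bind the same receptor, CXCR3, a G protein-coupled receptor carried mainly by activated T cells and NK cells. The ligands are made by macrophages, dendritic cells, endothelial cells, fibroblasts and tumor cells in response to interferon gamma, and Cxcl10 also answers to type I interferon and NF-kB. T cells and NK cells that enter a tumor release interferon gamma themselves, and the axis is best known for drawing such cells into inflamed tissue.

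The 3 ligand genes lie side by side on the minus strand of chromosome 5 (GRCm38, GENCODE M21). Cxcl9 (ENSMUSG00000029417) spans chr5:92321347-92328079, Cxcl10 (ENSMUSG00000034855) spans chr5:92346638-92348889, and Cxcl11 (ENSMUSG00000060183) spans chr5:92359544-92365485. Cxcl9 and Cxcl10 are 18558 bases apart, and Cxcl10 and Cxcl11 are 10654 bases apart. The receptor gene Cxcr3 (ENSMUSG00000050232) is on the minus strand of the X chromosome, at chrX:101731535-101734269. The annotation lists Cxcl11 as a polymorphic pseudogene, since the C57BL/6 reference strain carries a frameshift in it that BALB/c mice do not have. Exons of Cxcl10 share 133 bases with exons of Art3, an ADP-ribosyltransferase gene on the opposite strand, and exons of Cxcl11 share 1582 bases with Gm2673, a processed pseudogene on the opposite strand. Whether reads were counted by strand is not given in the sources used here. Art3 was low, at 0.206 to 1.01 FPKM (fragments scaled to transcript length and sequencing depth), and Gm2673 was listed at 0 in every tumor except swimming 2, where it was 0.0451 FPKM.

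RefSeq promoter entries (GRCm38.p6) matched 3 of the 4 genes, the exception being Cxcl11. The 250 bases before the transcription start are shown for Cxcl9 (chr5:92328080-92328329, minus strand) and Cxcl10 (chr5:92348890-92349139, minus strand), because these neighbors moved together from tumor to tumor. They are written 5′ to 3′, and capitals mark matches to the GAS element of interferon gamma response (TTCNNNGAA), the interferon-stimulated response element (a pair of GAAA half-sites with 2 free bases between them) and the NF-kB site (GGG and TTCC with 2 or 3 free bases between them), searched on both strands.
Cxcl9: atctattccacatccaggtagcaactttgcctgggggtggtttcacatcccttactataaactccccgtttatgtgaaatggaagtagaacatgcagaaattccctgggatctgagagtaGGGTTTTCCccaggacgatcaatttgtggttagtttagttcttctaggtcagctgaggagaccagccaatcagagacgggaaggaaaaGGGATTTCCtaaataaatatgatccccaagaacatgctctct
Cxcl10: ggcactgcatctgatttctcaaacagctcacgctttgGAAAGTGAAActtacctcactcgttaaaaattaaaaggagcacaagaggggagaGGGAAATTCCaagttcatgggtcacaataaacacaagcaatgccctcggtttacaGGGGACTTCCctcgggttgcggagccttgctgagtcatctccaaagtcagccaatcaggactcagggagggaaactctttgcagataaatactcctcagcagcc
Counted from -1 at the base before the start, the Cxcl9 window held an NF-kB match at -130 and at -42, both with 2 free bases. The Cxcl10 window held the half-site pair at -213 and NF-kB matches with 3 free bases at -159 and -104, the latter overlapping a match with 2 free bases at -103. Among 32817 promoter windows of the same length, 8.25% held an NF-kB match of either kind, 2.97% held the half-site pair and 0.219% held both. The GAS letters, found in 7.01% of the windows, were in none of the 3. The Cxcr3 window, of which 122 bases lie in the first exon of the GENCODE model, held none of these 4 motifs. It held the T-box core TCACAC, found in 12.3% of all windows, and the RUNX core ACCACA, found in 14.0%, which the Cxcl9 window held too. These matches describe the letters of the windows and not bound sites.

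All 4 genes passed the filter of at least 0.1 FPKM in at least 6 tumors, as did 19018 genes in all. FPKM is per length, so the levels of the 4 genes can be set side by side, and Cxcl9 was the highest, with a mean of 19.3 FPKM over the 12 tumors, above 84.2% of the genes tested. The mean level of Cxcl10 was 10.2 FPKM, above 72.3% of the genes tested. Cxcl11, at 1.03 FPKM, and Cxcr3, at 0.554 FPKM, were above 33.2% and 25.3% of them. The order of the ligands was the same in each tumor. The Cxcl9 level was 1.28 to 2.38 times that of Cxcl10, with a median of 1.71, and the Cxcl10 level was 8.25 to 12 times that of Cxcl11, with a median of 10.2. Cxcl11 was above Cxcr3 in 10 of 12 tumors, the exceptions being control 1 and swimming 1, and this ratio ran from 0.540 to 6.67, so these neighbors in the order were not separated in every tumor.

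Cxcl9, the ligand that depends most on interferon gamma, was higher on average in the swimming group. Its level was 6.65 FPKM in the lowest control tumor, 9.74 at the median and 25.4 in the highest. In the swimming group the lowest was 5.80 FPKM, the median 29.7 and the highest 39.1. The groups overlapped: 3 swimming tumors (35.4 to 39.1 FPKM) were above every control tumor, while swimming 1 was below all of them and control 4 was among the swimming tumors. The mean of control tumors was 11.8 ± 7.03 FPKM and that of swimming tumors 26.7 ± 13.2 FPKM (SD, n = 6 each), a ratio of 2.27. On log2(FPKM + 1) the difference was 1.04 (SE 0.43). In bulk tumors, more cells that express a gene and more RNA of it per cell cannot be told apart.

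Cxcl10, which type I interferons induce as well, followed the same pattern at a lower level. Control tumors ranged from 4.83 to 10.7 FPKM with a median of 6.37, and swimming tumors ranged from 4.52 to 22.1 FPKM with a median of 13.9. Swimming 1 was again the lowest of the 12 tumors, and the other 5 swimming tumors were above the control median, 4 of them above every control tumor. The lowest of these, swimming 4 at 10.8 FPKM, was level with control 4 at 10.7 FPKM. The mean of control tumors was 6.89 ± 2.33 FPKM and that of swimming tumors 13.6 ± 6.53 FPKM (SD, n = 6 each), a ratio of 1.97, and the difference on log2(FPKM + 1) was 0.79 (SE 0.31).

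Cxcl11, the ligand with the highest affinity for CXCR3, was low throughout. It ranged from 0.416 to 1.26 FPKM in control tumors (median 0.645) and from 0.411 to 2.04 FPKM in swimming tumors (median 1.5). As with Cxcl10, swimming 1 was the lowest tumor and 4 swimming tumors were above every control. The mean of control tumors was 0.695 ± 0.308 FPKM and that of swimming tumors 1.37 ± 0.597 FPKM (SD, n = 6 each), a ratio of 1.97. The difference on log2(FPKM + 1) was 0.46 (SE 0.18), and with a pseudocount of 0.1 it was 0.83, since the added 1 is close to the level of the gene itself.

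The receptor Cxcr3 had the widest range of the 4 genes, its highest tumor being 20.8 times its lowest. Control 1 to control 6 had 1.02, 0.339, 0.205, 0.315, 0.0694 and 0.171 FPKM. Swimming 1 to swimming 6 had 0.50, 0.335, 1.05, 0.410, 1.44 and 0.792 FPKM. All 6 swimming tumors were above the control median of 0.260 FPKM, but control 1 was below only swimming 5 and swimming 3, the 2 swimming tumors above every control. The mean of control tumors was 0.353 ± 0.342 FPKM and that of swimming tumors 0.755 ± 0.429 FPKM (SD, n = 6 each), a ratio of 2.14. The difference on log2(FPKM + 1) was 0.37 (SE 0.17), 1.03 with a pseudocount of 0.1, and 0.50 without control 1.

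**Figure D1:**
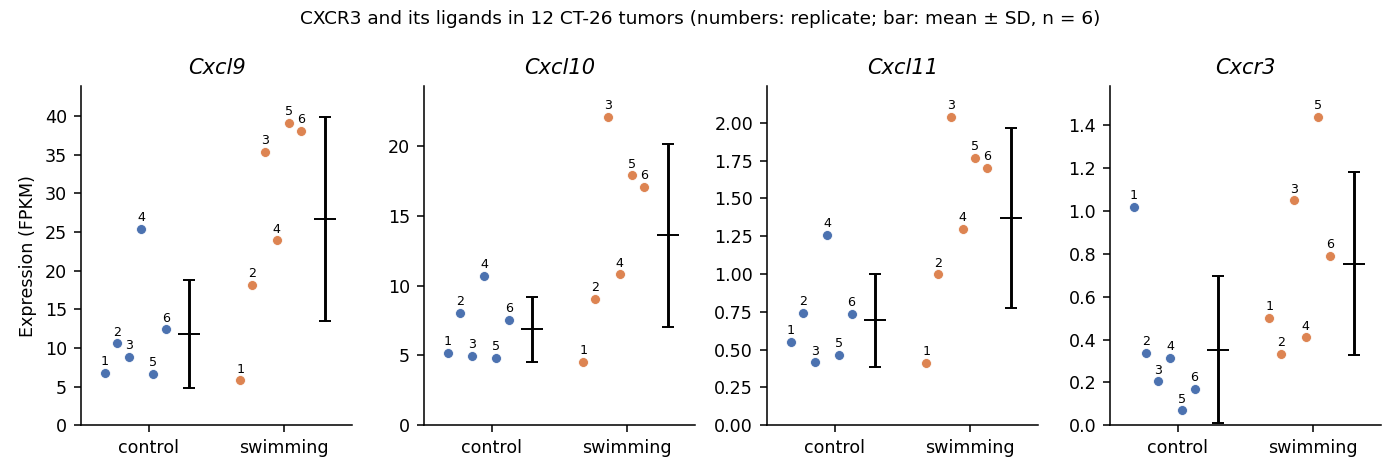
FPKM of the 4 genes (vertical axes, each from 0) in the 6 control and 6 swimming tumors; points are single tumors and the bar beside them shows the mean with 1 SD. The mean of each gene is higher in the swimming group and the groups overlap in each panel, with swimming 1 the lowest of the 12 tumors for the 3 ligands.

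As background for these differences, which carry no test here, of the 19018 genes tested with limma, 0 (percentage 0) had an adjusted p below 0.05 after Benjamini-Hochberg adjustment, the smallest adjusted p of any gene being 0.204. The count was 3 without control 4 and 2 without swimming 1. At an unadjusted p below 0.05 there were 1058 genes, or 5.56%, with 591 (3.11%) higher and 467 (2.46%) lower in the swimming group. The groups did not overlap for 28 genes (0.147%), 15 of them (0.0789%) higher in the swimming group, and 0 of the 4 genes were among them. Leaving out single tumors kept the 4 differences above 0. It moved the difference for Cxcl9 between 0.89 and 1.41, for Cxcl10 between 0.62 and 1.04, for Cxcl11 between 0.38 and 0.60, and for Cxcr3 between 0.27 and 0.50, with the highest values for the ligands found without swimming 1 and the lowest without swimming 5 or swimming 3.

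The 3 ligands rose and fell together from tumor to tumor, also inside each group, where the comparison that chose them plays no part. Within the control group, r of log2(FPKM + 1) was 0.93 for Cxcl9 and Cxcl10 (exact permutation p = 0.0125, n = 6), 0.94 for Cxcl9 and Cxcl11 (exact permutation p = 0.0194) and 0.96 for Cxcl10 and Cxcl11 (exact permutation p = 0.00417). Within the swimming group the same pairs gave 0.96, 0.98 and 0.99 (exact permutation p = 0.00694, 0.00694 and 0.00139, two-sided and not adjusted). Over the 12 tumors r was 0.97, 0.98 and 0.99 and Spearman's rho 0.96, 0.94 and 0.99, each with an adjusted permutation p of 7.3e-05 over 22 relations. Without the 2 tumors farthest from the median of the first gene, r was still 0.95, 0.97 and 0.98. The ratio of Cxcl10 to Cxcl11 was nearly constant, with a control median of 10.3 and a swimming median of 10.1. The median ratio of Cxcl9 to Cxcl10 was 1.51 in control and 2.10 in swimming tumors, with ranges of 1.31 to 2.38 and 1.28 to 2.23 that overlapped.

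The relations of Cxcr3 with its ligands were weaker by the size of r, a difference that was not tested. Its r with Cxcl9, Cxcl10 and Cxcl11 was -0.17, -0.08 and 0.03 within the controls and 0.62, 0.72 and 0.67 within the swimming tumors, with exact permutation p between 0.104 and 0.968 (n = 6). Over the 12 tumors r was 0.51, 0.61 and 0.61, with adjusted permutation p of 0.103, 0.0493 and 0.0493, and rho was 0.47, 0.57 and 0.56, with adjusted permutation p of 0.148, 0.0868 and 0.0868. These values pool the groups, whose difference helped to choose the genes. With the group means taken off, r was 0.31, 0.43 and 0.43 (adjusted permutation p = 0.421, 0.241 and 0.241). Without the 2 tumors highest in the ligand, the pooled r dropped to between 0.24 and 0.28. Without control 1, in which Cxcr3 was high and the ligands low, the pooled r was 0.73, 0.81 and 0.78, and without swimming 5 it was 0.36, 0.50 and 0.50. Without both, a choice made after seeing the data, it was 0.68, 0.80 and 0.77 (adjusted permutation p = 0.0494, 0.0141 and 0.0166). The pooled relation thus depended on which tumors were kept.

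**Figure D2:**
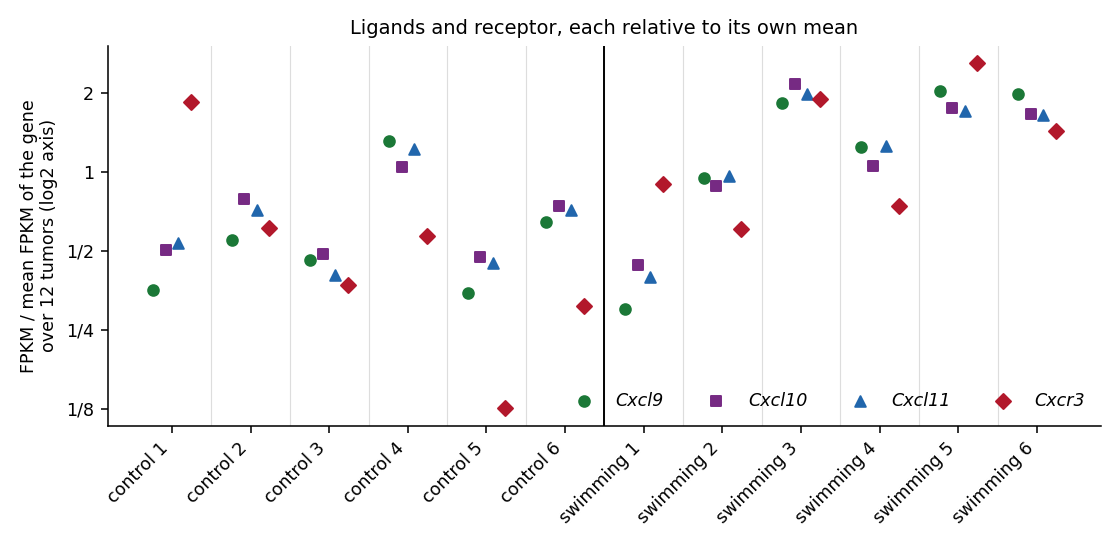
Level of each gene in each of the 12 tumors (horizontal axis) divided by its own mean over the 12 tumors (vertical axis, log2 scale), with one symbol per gene. The 3 ligands sit close together in every tumor, while Cxcr3 is far above them in control 1, above them in swimming 1 and far below them in control 5.

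Ifng, the cytokine that induces the ligands, was low, at 0.125 to 0.584 FPKM in control tumors and 0.334 to 1.83 FPKM in swimming tumors. Over the 12 tumors its r with Cxcl9, Cxcl10 and Cxcl11 was 0.83 each, with adjusted permutation p of 0.00170, 0.00252 and 0.00190. Spearman's rho was 0.84, 0.81 and 0.83 (adjusted permutation p = 0.00374, 0.00538 and 0.00465), and without swimming 5 and swimming 6 r was 0.73, 0.75 and 0.78. In the swimming group r was 0.88, 0.85 and 0.83 (exact permutation p = 0.00833, 0.0319 and 0.0375, n = 6). In the control group r was 0.33, 0.23 and 0.37 (exact permutation p = 0.550, 0.628 and 0.489, n = 6), and the difference between the groups was not tested. With the group means taken off, r was 0.74, 0.73 and 0.72, of which only that with Cxcl9 had an adjusted permutation p below 0.05 (0.0328, against 0.0665 and 0.0586).

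Ncr1, which codes for the NK cell receptor NKp46, followed the ligands more closely than Ifng did by the size of r. In the control tumors Ncr1 ranged from 0.702 to 1.68 FPKM and in the swimming tumors from 0.562 to 2.44 FPKM. Swimming 1 had the lowest Ncr1 level of the 12 tumors as it had the lowest ligand levels, and swimming 3, highest in Cxcl10 and Cxcl11, had the highest Ncr1 level. Its r with Cxcl9, Cxcl10 and Cxcl11 was 0.90, 0.93 and 0.93 over the 12 tumors, with adjusted permutation p of 0.000257, 0.000110 and 0.000132, and rho was 0.95, 0.96 and 0.95, each with an adjusted permutation p of 7.3e-05. Within the control group r was 0.80, 0.88 and 0.90 (exact permutation p = 0.0458, 0.00833 and 0.00833, n = 6). Within the swimming group r was 0.94, 0.96 and 0.98 (exact permutation p = 0.0125, 0.00139 and 0.00139, n = 6). Without the 2 tumors farthest from the Ncr1 median, r was 0.88, 0.90 and 0.92. The difference between the Ncr1 and Ifng relations was not tested.

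Cd3e, a chain of the T cell receptor complex, had r of 0.32, 0.30 and 0.33 with the ligands over the 12 tumors (adjusted permutation p = 0.318, 0.341 and 0.316) and rho of 0.34, 0.39 and 0.36 (adjusted permutation p = 0.287, 0.231 and 0.259), so no relation passed the threshold. These values moved with single tumors, to 0.52, 0.47 and 0.48 without control 1 and to 0.08, 0.06 and 0.12 without swimming 5, and were 0.28 to 0.36 without both. Within the controls r of Cd3e with Cxcl9, Cxcl10 and Cxcl11 was -0.61, -0.55 and -0.47, and within the swimming tumors 0.51, 0.34 and 0.39. The exact permutation p of these values was between 0.219 and 0.501 (n = 6). With the group means taken off, r was 0.09, 0.05 and 0.08. With Cxcr3 the r of Cd3e was 0.68 (adjusted permutation p = 0.0238) and its rho 0.67 (adjusted permutation p = 0.0342), but r was 0.29 without control 1 and swimming 5. Within the controls r of Cd3e and Cxcr3 was 0.85 (exact permutation p = 0.0653, n = 6) and within the swimming tumors 0.36 (exact permutation p = 0.499, n = 6). Adgre1, the macrophage marker F4/80, had r of 0.68 to 0.69 with the ligands and 0.66 with Cxcr3 (adjusted permutation p = 0.0216 for each ligand and 0.0238 for Cxcr3). Its rho was 0.69, 0.75, 0.73 and 0.56 (adjusted permutation p = 0.0287, 0.0150, 0.0174 and 0.0868). Without swimming 5 and swimming 1 its r was 0.52 to 0.58 and 0.50, and no relation with Adgre1 within a group had an exact permutation p below 0.05. With the group means taken off, its r with the ligands was 0.64 to 0.65 (adjusted permutation p = 0.0971 for each). Cxcr3 had r of 0.68 with Ifng and 0.60 with Ncr1 (adjusted permutation p = 0.0238 and 0.0509), with rho of 0.52 and 0.47 (adjusted permutation p = 0.108 and 0.148). Without the 2 tumors farthest from the median of Ifng or of Ncr1, r was 0.40 and 0.65. With the group means taken off, r of Cxcr3 was 0.51 with Ifng and 0.51 with Ncr1 (adjusted permutation p = 0.161 and 0.159). Within the controls these r were -0.02 and 0.36, and within the swimming tumors 0.78 and 0.62 (exact permutation p between 0.0792 and 0.971, n = 6). The values over the 12 tumors in this paragraph pool the groups, whose difference helped to choose the members. Over the 22 relations, 17 had an adjusted permutation p below 0.05 by r, 13 by rho, and 7 by r after the group means were taken off: the 3 ligand pairs, Ncr1 with each ligand, and Ifng with Cxcl9.

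The genes most like each member were ranked by r of the deviations from the group means over the 12 tumors, among 12789 genes with a mean of at least 1 FPKM. The 5 genes most like Cxcl9 were Cxcl11, Gm43302, Iigp1 (an interferon-inducible GTPase), Calhm6 and Serpina3g (a protease inhibitor induced in activated lymphocytes and macrophages), each with r of 0.96. For Cxcl10 they were Cxcl11 (0.98), Cxcl9 (0.95), Bst2 (0.95, the antiviral membrane protein tetherin), Ncr1 (0.94) and Calhm6 (0.94). For Cxcl11 they were Cxcl10 (0.98), Cxcl9 (0.96), Ncr1 (0.96), Fcgr4 (0.96, an activating Fc receptor of myeloid cells) and Calhm6 (0.95). The 50 genes most like Cxcl9 and the 50 most like Cxcl10 had 38 in common, Cxcl9 and Cxcl11 had 35 and Cxcl10 and Cxcl11 had 39.

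The 50 genes most like Cxcr3 had 0 in common with those of any ligand. Its leading genes were Ctsh (0.95, the lysosomal protease cathepsin H), Creb3l1 (0.94, a transcription factor of secretory and matrix-producing cells), Serpina3n (0.94, a secreted protease inhibitor), Thy1 (0.94, a surface protein of T cells and fibroblasts) and Steap3 (0.94, a metalloreductase of iron uptake). The group mean was 1.33 FPKM in control and 1.57 FPKM in swimming tumors for Steap3, the widest of the 5 as a ratio, and 10.6 and 10.3 FPKM for Thy1. The 3 tumors highest in Cxcr3, namely swimming 5, swimming 3 and control 1, were also the 3 highest in the summed level of 6 fibroblast markers, with 758, 466 and 792 FPKM against 196 to 447 FPKM in the other tumors. However, 0 of the 6 fibroblast markers were among the 50 genes most like Cxcr3. The same 3 tumors and swimming 6, the next in Cxcr3, were also the highest in summed dendritic cell markers. These were 9.08 to 9.67 FPKM there and 4.35 to 8.39 FPKM in the other tumors. Of 3 dendritic cell markers with a mean of at least 1 FPKM, 1 was among the 50 genes most like Cxcr3. These 50 genes held 0 of 5 T cell markers, 0 of 4 NK cell markers and 0 of 10 macrophage and monocyte markers with such a mean. Control 1 also had a summed B cell marker level of 5.91 FPKM, against 0.416 to 1.68 FPKM elsewhere, and the highest T cell marker sum of the control group, 16.2 FPKM. The part of these cell types in the Cxcr3 values was not tested.

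**Figure D3:**
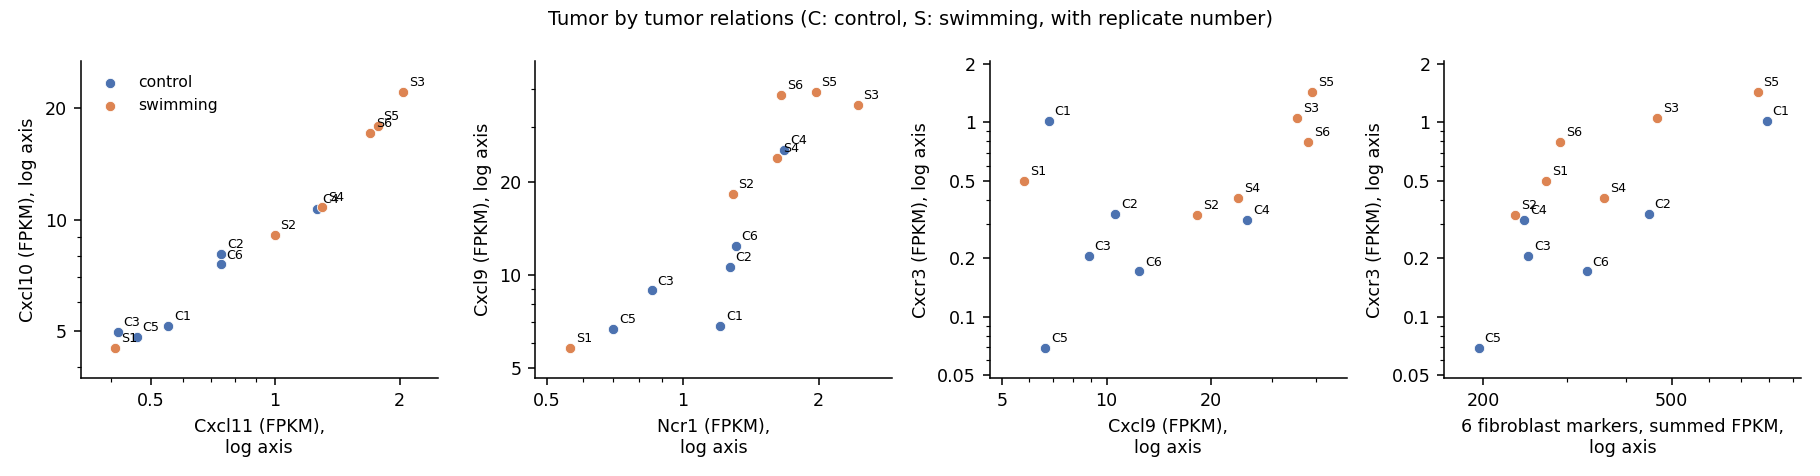
Pairs of levels, one point per tumor, all axes logarithmic and in FPKM: Cxcl10 against Cxcl11, Cxcl9 against Ncr1, Cxcr3 against Cxcl9, and Cxcr3 against the sum of 6 fibroblast markers. The ligands lie along a line (r = 0.99 for Cxcl10 and Cxcl11 on log2(FPKM + 1)). Control 1 and, to a lesser degree, swimming 1 stand apart from the relation of Cxcr3 with Cxcl9.

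Other genes of the pathway were described from lists by their share higher in the swimming group at an unadjusted p below 0.05, which was 3.11% over all genes, and by their median difference on log2(FPKM + 1), which was 0.00 over all genes. No gene of any list had an adjusted p below 0.05. These lists were also drawn up with results of this comparison known. Of the 15 tested genes of the interferon gamma list, which also holds genes of type I interferon and NF-kB signaling, 4 were higher and 0 lower, with a median difference of 0.17. Among them were Ifng (0.55, SE 0.17), Stat2 (0.41, SE 0.17), which relays type I interferon signals, and Tnf (0.43, SE 0.13), the cytokine that activates NF-kB. The interferon gamma receptor chains Ifngr1 and Ifngr2 had differences of 0.06 and -0.03 and were named after their values were seen.

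Targets of interferon gamma other than chemokines were higher for 12 of 15 genes and lower for 0, with a median difference of 0.62. They were the guanylate-binding proteins Gbp2 (0.99, SE 0.33), Gbp3 (0.93, SE 0.29), Gbp4 (0.85, SE 0.33) and Gbp5 (0.73, SE 0.24), the immunity-related GTPases Igtp (0.80, SE 0.31), Iigp1 (0.78, SE 0.35) and Irgm1 (0.58, SE 0.25), and Ido1 (0.85, SE 0.27), an enzyme that breaks down tryptophan. The MHC class II activator Ciita (0.60, SE 0.22), the checkpoint ligand Cd274 (0.50, SE 0.22) and the immunoproteasome subunits Psmb8 (0.62, SE 0.20) and Psmb9 (0.48, SE 0.21) complete the 12. Without control 5, swimming 5 or swimming 6 the count was 7 of 15, without swimming 1 it was 15 of 15, and without both control 1 and swimming 5 it was 6 of 15. The count for the list that holds Ifng, Stat2 and Tnf was 7 without swimming 1 and 2 without both control 1 and swimming 5.

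Among 10 other tested CXC ligands, most of which act on other receptors, only Cxcl16 was higher (0.23, SE 0.08), and the median difference was 0.18. Without control 1, or without it and swimming 5, the count was 3, and it was 2 without control 6, swimming 3 or swimming 4. Pf4, the platelet chemokine CXCL4 that can also bind CXCR3, was the most abundant of them and had a difference of -0.28 (SE 0.20), and it was named after its value was seen. Cxcr6, the receptor of Cxcl16 found on memory T cells and NKT cells, was higher (0.58, SE 0.24). It was the only one of 5 other CXC and atypical receptors that was higher, and the median there was 0.04. The call for Cxcr6 was lost without any of 6 single tumors, namely control 4, 5 or 6 and swimming 2, 4 or 5. Cxcl1 (0.43, SE 0.44) and Cxcl12 (0.38, SE 0.20), which attract neutrophils and many leukocytes respectively, had differences closer to their errors and were named after their values were seen. Of 6 genes that cut or clear the ligands, 0 were higher or lower, and the largest differences were those of Ackr1 (0.16, SE 0.10), Mmp8 (-0.16, SE 0.15) and Dpp4 (0.16, SE 0.11), the peptidase that trims the ends of the 3 ligands. Of 12 genes that act downstream of the receptor, 0 were higher or lower, with a median of 0.02, and the largest were Arrb1 (0.27, SE 0.22), a beta-arrestin, and Grk3 (0.19, SE 0.11), a receptor kinase. The 6 other genes around the ligands on chromosome 5 had a median of -0.04 and 0 were higher or lower, the largest being Naaa (0.24, SE 0.19) and Art3 (-0.10, SE 0.11).

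Marker lists were read for the cells that carry CXCR3 or make its ligands. They too were drawn up with results of this comparison known. Over all genes, 3.11% were higher and 2.46% lower in the swimming group at a limma unadjusted p below 0.05. Of 14 T cell markers, 8 were higher and 0 lower at an unadjusted p below 0.05, with a median difference of 0.38. Their summed level was 5.88 to 16.2 FPKM in control tumors and 10.9 to 28.8 FPKM in swimming tumors, and Lck and Cd8a, the highest of them, had differences of 0.35 (SE 0.16) and 0.61 (SE 0.23). Of 8 NK cell markers only Klrk1 (0.38, SE 0.14, named after its value was seen) was higher, with a median of 0.11 and summed levels of 17.2 to 41.0 FPKM in control tumors and 10 to 50.9 FPKM in swimming tumors, the lowest being swimming 1. Their count was 3 without swimming 1 and 0 without both control 1 and swimming 5. Ncr1 itself had a difference of 0.23 (SE 0.17), and the granule proteins Gzmb and Prf1, the highest in level, had 0.09 (SE 0.33) and -0.22 (SE 0.33). Of 10 macrophage markers 0 were higher or lower, with a median of 0.11 and summed levels of 683 to 1027 FPKM in control and 808 to 1198 FPKM in swimming tumors. Of 9 dendritic cell markers Xcr1 (0.31, SE 0.09) and Flt3 (0.17, SE 0.08), named after their values were seen, were higher, and the median of the 9 was 0.19. The summed levels of the dendritic cell markers were 4.35 to 9.67 FPKM in control and 6.22 to 9.28 FPKM in swimming tumors. Their count was 6 without control 1 and 1 without any single one of control 2 to 6 or swimming 3 to 6. The part of any of these cells in the ligand or receptor levels was not tested.

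Fibroblast markers (6 tested), endothelial markers (6), neutrophil markers (5), skeletal muscle markers (6), B cell markers (2) and epithelial markers (5) held 0 genes higher or lower. Their median differences were 0.09, 0.03, 0.11, 0.45, -0.08 and -0.10. The summed fibroblast markers were 196 to 792 FPKM in control and 234 to 758 FPKM in swimming tumors, the summed endothelial markers 26.1 to 46.1 and 26.6 to 42.2 FPKM, the summed neutrophil markers 7.59 to 41.8 and 11.4 to 39.9 FPKM, and the summed muscle markers 1.70 to 170 and 1.14 to 248 FPKM. For the tumor cells, Krt20 (difference -0.29, SE 0.14) and Krt8 (difference -1.09, SE 0.75) were the highest epithelial markers by mean FPKM. The rank of Krt8 rested on 1 control tumor at 129 FPKM, its control median of 8.94 FPKM being below the 9.37 FPKM of Krt18. Epcam, Vil1 and Cdx2, named after their values were seen, did not pass the filter and were near 0 in these tumors. Krt20, of the same epithelial list, was at 115 to 194 FPKM in control and 99.8 to 152 FPKM in swimming tumors.

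**Figure D4:**
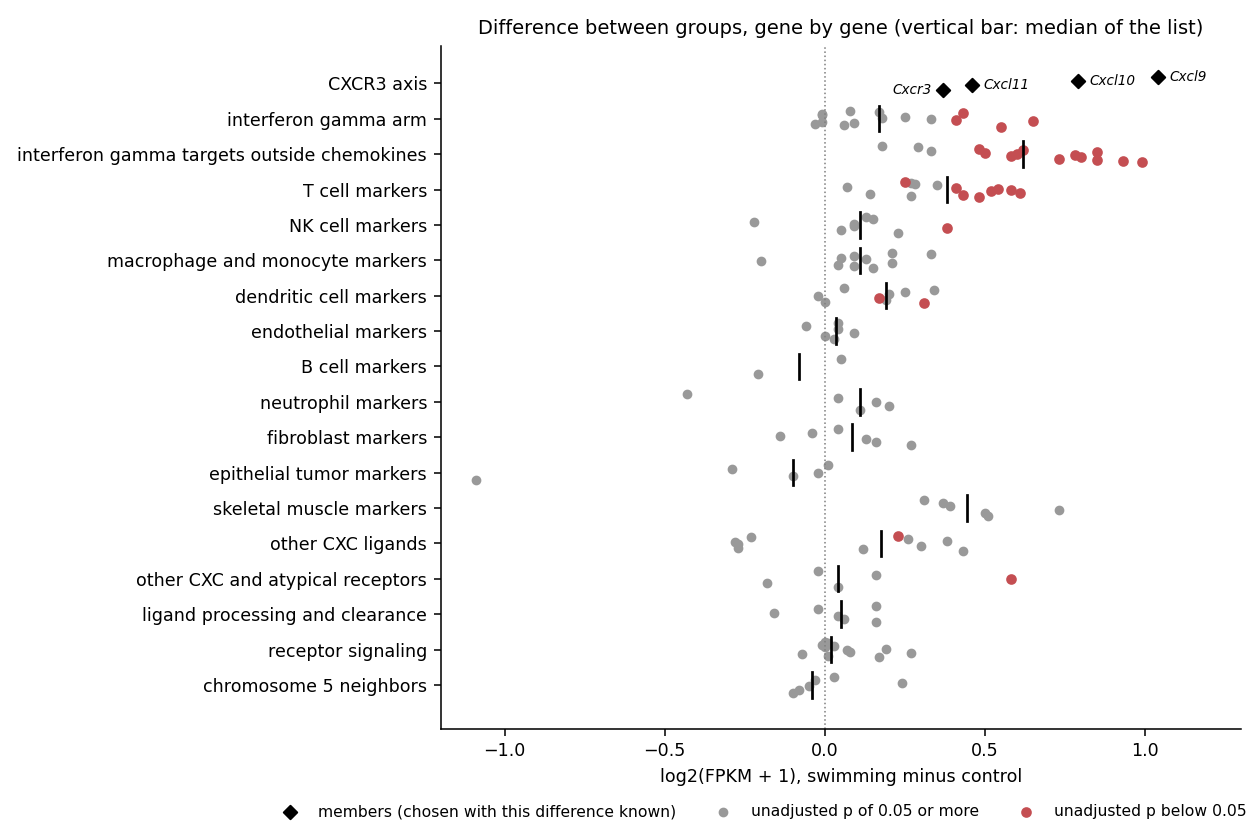
Difference between the groups on log2(FPKM + 1), swimming minus control (horizontal axis), for each tested gene of the lists (rows); red points have an unadjusted p below 0.05, vertical bars are list medians and diamonds are the 4 genes of the axis. Differences above 0.5 are mostly found among the interferon gamma targets and T cell markers, while receptor signaling genes and chromosome 5 neighbors lie around 0.

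The relative depth of the libraries, read from the steps between the values of weakly expressed genes, was 0.694 in control 2 and 0.871 to 1.00 in the other tumors. The absolute depth is unknown, so the number of fragments behind the low values of Cxcl11 and Cxcr3 cannot be given. Sums of FPKM ranged from 380139 to 407109, and 22293 to 23974 genes were above 0.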

How the data were processed

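RNA was extracted from 12 tumors, 6 taken at random from each group, and ribosomal RNA was removed before library preparation. The authors mapped the reads with HISAT2 2.0.5 and quantified them with StringTie 1.3.3, and the deposited values are FPKM per gene. The methods name the human genome hg38 and the processing notes list hg38 and GRCm38, while the identifiers are those of mouse Ensembl genes, so coordinates were matched by identifier. FPKM values carry no read numbers, so no counting error could be given.

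The members and gene lists were chosen with earlier results of these data known. The 2 groups were compared on log2(FPKM + 1) with lmFit and eBayes with a trend in limma 3.58.1 (R 4.3.3) and Benjamini-Hochberg adjustment, a method that was tested on simulated data. A fold change on this scale is smaller than the ratio of means for genes near 1 FPKM. Relations used 100000 permutations over 12 tumors, or all 720 orders within a group, and an adjusted p covers the 22 relations; the smallest unadjusted values they can give are 1.0e-05 and 0.00139. Named genes are the 4 members, Ifng, Cd3e, Ncr1 and Adgre1, the 5 most like each member, the overlapping genes, genes of the pathway lists at an unadjusted p below 0.05 or otherwise the 2 with the largest difference, and at most the 2 highest genes of a marker list; exceptions are marked as named after their values were seen. Alternatives were other pseudocounts, filters, scalings, no trend, a replicate block and leaving out tumors. Python 3.11.15, pandas 2.3.3, scipy 1.17.1 and matplotlib 3.10.9 were used. Cell numbers and transcript values were not analysed here. The value of 1 gene of the interferon gamma list is not reported here.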

Additional observations from a re-analysis of the deposited data

Results flagged for a closer look

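Of 42 sets of 6 tumors looked at for a single tumor far from the others, 8 were found, each being the highest of its group. A rate of 1 in 20 would give about 2.10, but that rate holds for independent sets of normally distributed values. The values here were FPKM without a log and the sets shared tumors, so 8 and 2.10 were not compared as a test. Among the members, the Cxcl9 level of 25.4 FPKM in control 4 stood apart from the next control tumor at 12.4 FPKM, and the Cxcr3 level of 1.02 FPKM in control 1 stood apart from the next at 0.339 FPKM. The Cd3e level of control 1 was 1.04 FPKM, against 0.528 FPKM in the next control tumor. In the same tumor the summed B cell markers reached 5.91 FPKM, the next being 0.777 FPKM. In swimming 5, the tumor highest in Cxcl9 and Cxcr3, the summed macrophage markers were 1198 FPKM, against 913 FPKM in the next swimming tumor, and the summed B cell markers 1.68 FPKM, against 0.934 FPKM. The summed neutrophil markers of swimming 6 were 39.9 FPKM (next 19.5 FPKM) and the summed skeletal muscle markers of control 6 were 170 FPKM (next 57.2 FPKM).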

How the results depend on the processing

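With control 1 and swimming 5 both left out, a choice made after seeing the data, the differences on the log2 scale were 0.78 for Cxcl9, 0.62 for Cxcl10, 0.38 for Cxcl11 and 0.39 for Cxcr3. Pseudocounts of 0.1 and 0.01 gave 0.83 and 0.90 for Cxcl11 and 1.03 and 1.33 for Cxcr3. A filter of 1 FPKM gave no value for Cxcl11 and Cxcr3, which did not pass it. The count of genes with a limma adjusted p below 0.05 ran from 0 to 3 when single tumors were left out, being 3 without control 4 and 2 without swimming 1. Single tumors left out moved the count at an unadjusted p below 0.05 from 833 to 1443 and the count over all lists from 20 to 41. The counts of the B cell, neutrophil, epithelial and receptor signaling lists were 0 or 1 with single tumors left out, and that of the NK cell list was 2 without control 2, swimming 2 or swimming 3. Relations with an adjusted p below 0.05 numbered 7 with the group means taken off and 9 to 19 with single tumors left out, 9 being without swimming 5. The replicate numbers did not pair the tumors: same-numbered tumors had correlations of their deviations between -0.32 and 0.01, and 0 of 6 were over 0.1. With the replicate block the differences were 1.04, 0.79, 0.46 and 0.37 for the 4 genes, 0 genes had an adjusted p below 0.05, 892 had an unadjusted p below 0.05, and the lists held 26. Over all results and alternatives, 779 of 893 values kept their direction and their side of the threshold or stayed close. Of the differences and r values under these alternatives, 0 changed direction, but r within a single group was not among them. Within the controls, r was below 0 for Cd3e with each ligand, Cxcr3 with Cxcl9 and Cxcl10, and Ifng with Cxcr3, while the pooled r was above 0. The other values among the alternatives were counts, which have no direction and include lists at 0 under every alternative, so the share is not a test of stability. A difference was called close if it moved by less than 1 SD of the tumors around their group means. The unknown depth limits what can be said of Cxcl11 and Cxcr3, the genes with the lowest levels.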
